A study of Mus musculus with 24 samples.

Results

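The genes described are 7 transcription factor genes of the endoderm: Gata4, Gata6, Sox17, Sox7, Foxa2, Foxq1 and Hnf4a. They were picked by symbol from a table of normalized counts for 19953 genes, and all 7 had a row and passed the filter on low values in every comparison. PolyA RNA of mouse embryonic stem cells had been sequenced in 24 libraries, 3 in each of 8 groups, from 4 genotypes on 2 days. Wild-type cells (WT) and cells without MLL1 (Mll1-KO), MLL2 (Mll2-KO) or both (double-KO) were taken at day 0, in medium with leukemia inhibitory factor and 15% serum. The same genotypes were taken at day 4, after 4 days with 1 µM retinoic acid and 10% serum, a protocol the labels call a multilineage differentiation. Mll1-KO cells were derived by CRISPR deletion from a stem cell line carrying a Cre-inducible Mll2 deletion. The Mll2-KO and double-KO cells had received 800 nM 4-OHT for 48 h to induce that deletion, and WT and Mll1-KO cells were labelled untreated. Loss of MLL2 and exposure to 4-OHT therefore cannot be told apart, whereas WT against Mll1-KO and Mll2-KO against double-KO are each matched for the drug. The day 0 WT columns of the table carry an added letter A that no label explains, and they were taken as WT because they are the only WT columns of that day, so every day 0 comparison with WT rests on this reading. No label says how many clones stand behind each genotype. Nothing in the labels says that the 3 libraries of a group came from separate cultures, so p-values measure only the spread between these libraries.

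MLL1 and MLL2, encoded by Kmt2a and Kmt2b, are related histone methyltransferases that methylate lysine 4 of histone H3, and both carry a CXXC domain that binds unmethylated CpG sites. The primitive endoderm is the extraembryonic lineage that separates from the pluripotent epiblast in the early embryo and gives rise to visceral and parietal endoderm. GATA6 is the earliest of its regulators, GATA4, SOX17 and SOX7 follow, and FOXA2 and HNF4A act in visceral endoderm and later in gut and liver. Cultures of stem cells in serum are known to hold some cells that express these genes, and retinoic acid is a classical inducer of endoderm in pluripotent cells. In bulk RNA, fewer cells of a type and less RNA per cell cannot be told apart, and this applies to every value given here.

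Kmt2a checked the MLL1 deletion: it lay between 1047 and 1121 in the day 0 WT libraries and between 20.6 and 43 in the day 0 Mll1-KO libraries. At day 4 it lay between 2029 and 2239 in WT and between 42.1 and 69.5 in Mll1-KO. The double-KO libraries held 20.6 to 37 at day 0 and 88.4 to 132 at day 4, where Kmt2a was higher than in Mll1-KO (0.89, adjusted p = 2.6e-06) and still far below Mll2-KO (-4.51). Kmt2b lay between 2099 and 3701 in all 24 libraries, and a count over the whole gene checks nothing on a deletion of part of it. Total reads, in units of mega-reads (M), ran from 17.7 M to 22.8 M per library at day 0 and from 10.7 M to 17.1 M at day 4. The defining markers of stem cells were present at day 0 and low at day 4: the pluripotency genes Pou5f1 and Sox2 averaged 33390.1 and 7611 in day 0 WT and 958 and 362 in day 4 WT. All levels are normalized counts, which are gene counts divided by a size factor of the library. Group values are mean ± SD over 3 libraries. Where groups are said not to overlap, the share of all genes without overlap was not counted, so this is only a description. Differences are log2 fold changes of the normalized count plus 1 from a limma fit with standard errors (SE). A gene was called lower or higher at a Benjamini-Hochberg adjusted p below 0.05 over all genes tested.

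**Figure D1:**
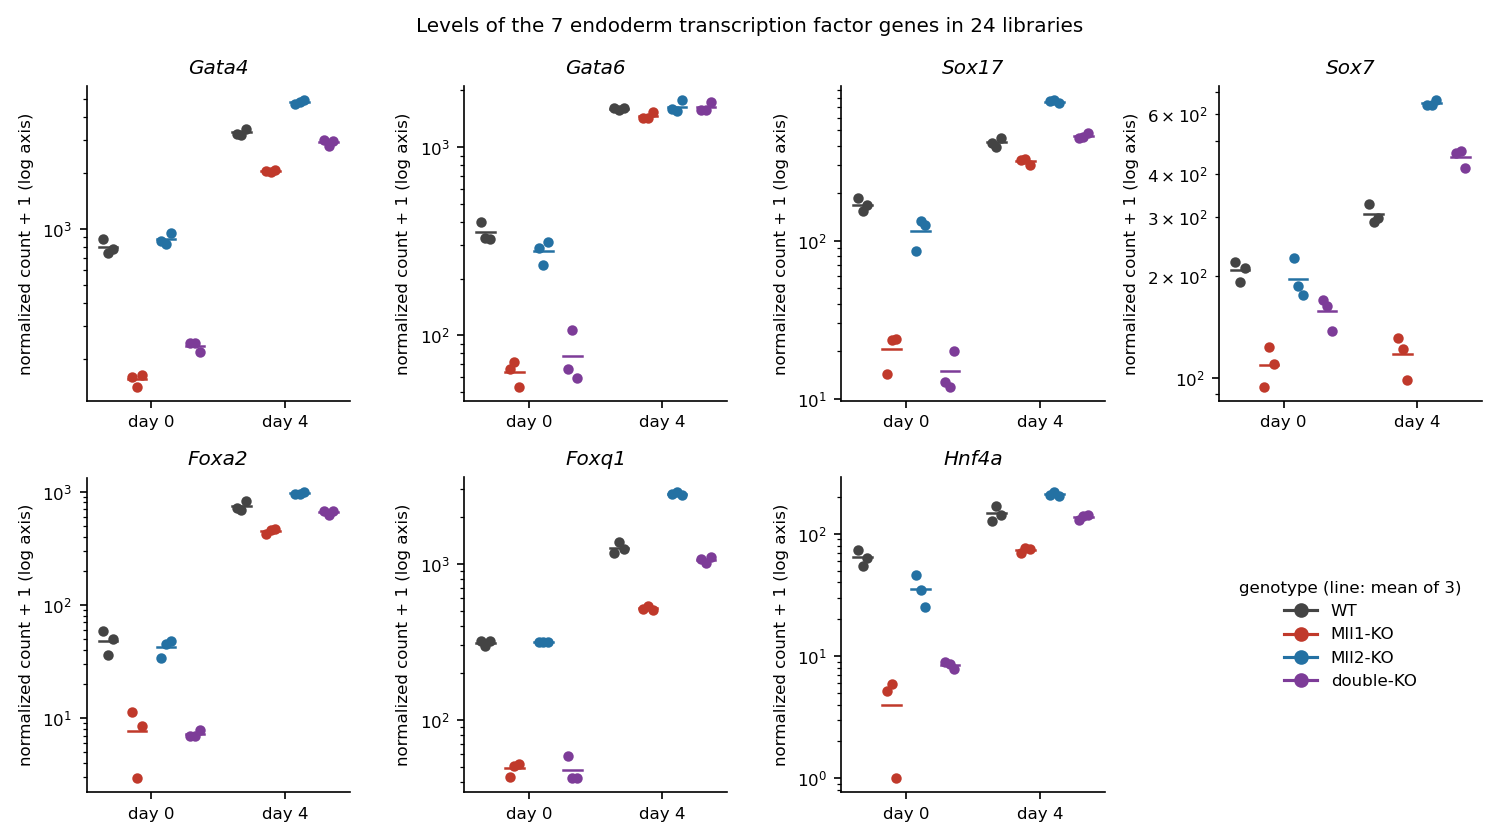
Normalized count plus 1 (log axis) of the 7 endoderm factors in each of 24 libraries, by day and genotype. Points are libraries and lines are means of 3. At day 0 the Mll1-KO libraries lie below the WT libraries in all 7 panels, and at day 4 the Gata6 panel shows all 4 genotypes between 1419 and 1772.

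The first question was what loss of MLL1 changed in stem cells. At day 0 all 7 factors were lower in Mll1-KO than in WT, with a median log2 fold change of -2.68 and a range from -4.36 for Hnf4a to -0.94 for Sox7. Of all 13984 genes tested in this comparison, 18.7% were called lower, and their median difference was 0. Against Mll2-KO, the double-KO was lower in 6 of the 7, with a median of -2.03, where 24.3% of all genes were called lower. The exception was Sox7.

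Gata4, a zinc finger factor of extraembryonic endoderm and of the heart, lies on chromosome 14 (mm10, 63198922 to 63271692, minus strand). It was 881, 744 and 780.5 in the day 0 WT libraries and 159, 141 and 163 in the Mll1-KO libraries. Every Mll1-KO library lay far below every WT library, and the log2 fold change was -2.37 (SE 0.09, adjusted p = 4.5e-14), 5.17-fold lower. It was 856, 824 and 953 in Mll2-KO and 241, 242 and 217 in the double-KO, again with no overlap, a difference of -1.91 (SE 0.09, adjusted p = 1.2e-12).

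Gata6, the other GATA factor of the set and a marker of the first primitive endoderm cells, lies on chromosome 18 (11052064 to 11085635, plus strand). The day 0 WT libraries held 399, 329 and 325 and the Mll1-KO libraries 64.8, 71.3 and 52.3. The groups did not overlap, and the difference was -2.47 (SE 0.18, adjusted p = 1.5e-09). The Mll2-KO libraries held 289, 236 and 310.4 and the double-KO libraries 65.1, 106 and 58.5, so that the highest double-KO library stayed below the lowest Mll2-KO library. That difference was -1.89 (SE 0.18, adjusted p = 5e-08).

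Sox17 (chromosome 1, 4490931 to 4497354, minus strand) encodes an HMG box factor of the SOX-F subfamily, required for endoderm formation. It stood at 186, 153 and 167 in day 0 WT and at 13.4, 22.5 and 22.8 in Mll1-KO, 8.45-fold lower (-3.08, SE 0.25, adjusted p = 7.8e-09). In Mll2-KO it stood at 85, 133 and 125 and in the double-KO at 11.8, 10.9 and 18.9 (-2.97, SE 0.25, adjusted p = 9.1e-09). With and without MLL2, none of the Mll1-deleted libraries reached a level above 22.8.

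Sox7 (chromosome 14, 63943673 to 63950732, plus strand) belongs to the same SOX-F subfamily and marks parietal endoderm and early endothelium. Its day 0 WT libraries held 219.8, 192 and 210.5 and its Mll1-KO libraries 93.6, 123 and 109. The groups were separate, but the difference was the smallest of the 7, -0.94 (SE 0.14, adjusted p = 1.4e-05), 1.91-fold lower. The Mll2-KO libraries held 226, 186 and 175 and the double-KO libraries 169.6, 163 and 137. These groups did not overlap either, but the difference of -0.32 (95% interval -0.6 to -0.04) missed the threshold (adjusted p = 0.057). It passed the threshold without Mll1-KO replicate 1 (adjusted p = 0.048) or Mll2-KO replicate 3 (adjusted p = 0.03). It also passed with edgeR (adjusted p = 0.043), with scaling to column totals (adjusted p = 0.028) and with all 24 libraries in the fit (adjusted p = 0.03).

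Foxa2 (chromosome 2, 148042877 to 148046969, minus strand) encodes a forkhead pioneer factor of visceral endoderm, node and gut. Levels were low in stem cells, at 57.4, 34.9 and 48.9 in WT and 10.3, 1.95 and 7.59 in Mll1-KO, where the 3 libraries held 21 reads in all. The difference was -2.84 with a wide error (SE 0.41, adjusted p = 1.5e-05). In Mll2-KO the libraries held 33.1, 44.3 and 46.5 and in the double-KO 5.92, 5.89 and 6.88 (-2.54, SE 0.41, adjusted p = 4.1e-05). Despite the few reads, no Mll1-deleted library reached the level of any library with MLL1.

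Foxq1 (chromosome 13, 31556134 to 31560976, plus strand) is another forkhead gene, known for its role in hair formation and the stomach lining. It was 320.1, 295 and 318 in day 0 WT and 42.2, 49.8 and 51.4 in Mll1-KO (-2.68, SE 0.14, adjusted p = 1.2e-11). It was 316, 313 and 313 in Mll2-KO and 57.2, 41.3 and 41.3 in the double-KO (-2.74, SE 0.14, adjusted p = 6.8e-12). The loss was 6.41-fold with MLL2 and 6.7-fold without it.

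Hnf4a (chromosome 2, 163506808 to 163572910, plus strand) encodes a nuclear receptor that drives the secretory programme of visceral endoderm and liver. It showed the largest fall of the set, from 73.5, 53.2 and 62.9 in day 0 WT to 4.12, 4.88 and 0 in Mll1-KO, where the 3 libraries held 9 reads in all. The log2 fold change was -4.36 (95% interval -5.39 to -3.32, adjusted p = 7.4e-07), and -3.54 without Mll1-KO replicate 3, the library with no read. Only 2 of the 13984 genes tested had a lower log2 fold change, since Hnf4a ranked 3 by size of fall. In Mll2-KO the libraries held 44.8, 33.9 and 24.4 and in the double-KO 7.89, 7.58 and 6.88 (-2.03, SE 0.5, adjusted p = 0.0022).

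Promoter windows of 300 bases, from 250 before to 50 after a transcript start, were taken from RefSeq (GRCm38.p6). They were read for Foxa2 and Hnf4a, 2 of the 7 genes, with 5 windows in all. No window of another factor was used, which does not mean that none was given. Foxa2 and Hnf4a had the lowest stem cell levels of the set. The windows are described because the CXXC domain binds CpG sites, and because GATA factors belong to the set. Capitals mark a GATA hexamer, which is AGATAA in these windows.
Foxa2, chr2:148045899-148046198, minus strand: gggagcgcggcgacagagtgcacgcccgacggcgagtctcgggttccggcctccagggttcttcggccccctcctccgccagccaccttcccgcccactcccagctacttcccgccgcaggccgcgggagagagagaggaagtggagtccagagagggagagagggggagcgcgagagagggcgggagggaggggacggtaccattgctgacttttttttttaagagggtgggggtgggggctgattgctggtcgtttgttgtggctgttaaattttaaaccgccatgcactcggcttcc
Foxa2, chr2:148045415-148045714, minus strand: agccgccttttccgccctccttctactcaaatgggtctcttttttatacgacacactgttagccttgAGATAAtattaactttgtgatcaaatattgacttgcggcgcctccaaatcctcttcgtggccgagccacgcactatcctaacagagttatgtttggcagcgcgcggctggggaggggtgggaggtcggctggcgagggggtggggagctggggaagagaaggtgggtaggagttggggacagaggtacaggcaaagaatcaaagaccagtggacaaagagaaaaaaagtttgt
Hnf4a, chr2:163506607-163506906, plus strand: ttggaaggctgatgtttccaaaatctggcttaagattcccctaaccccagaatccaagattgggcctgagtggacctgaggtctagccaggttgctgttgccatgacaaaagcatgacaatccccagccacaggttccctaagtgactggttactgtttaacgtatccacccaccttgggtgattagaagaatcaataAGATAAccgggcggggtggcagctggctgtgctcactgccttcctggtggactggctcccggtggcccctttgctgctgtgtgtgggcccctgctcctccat
Hnf4a, chr2:163546905-163547204, plus strand: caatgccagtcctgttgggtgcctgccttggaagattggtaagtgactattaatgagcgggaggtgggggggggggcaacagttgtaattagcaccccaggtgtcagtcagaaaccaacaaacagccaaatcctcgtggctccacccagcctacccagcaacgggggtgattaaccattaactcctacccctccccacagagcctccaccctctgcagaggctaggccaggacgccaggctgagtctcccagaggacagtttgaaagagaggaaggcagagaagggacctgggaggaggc
The first Foxa2 window printed held 23 CpG sites and no GATA hexamer. The second held 13 CpG sites, with AGATAA from 183 bases before the start. Another Foxa2 window, chr2:148046920-148047219 at the annotated gene start, was read but is not printed. It held 12 CpG sites and no GATA hexamer. Both Hnf4a windows held 4 CpG sites, against a median of 7 over all 32851 windows with quartiles of 3 and 20. The upstream Hnf4a window had AGATAA from 52 bases before its start, and the downstream window, 40.3 kb away, had none. Over all windows and both strands, 29.8% held a GATA hexamer (AGATAA or its variant AGATAG, or else TGATAA or its variant TGATAG), so a match is common and only a description of the letters.

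The second question was what remained of these differences after 4 days of retinoic acid. At day 4 all 7 factors were again called lower in Mll1-KO than in WT, but the median log2 fold change was -0.73, with a range from -1.38 for Sox7 to -0.14 for Gata6. Of the 14303 genes tested at day 4, 19.2% were called lower, with a median over all genes of 0. Between the double-KO and Mll2-KO, 6 of 7 were lower (median -0.62), against 20.9% of all genes. With all 24 libraries in a single fit, 3 of the 7 were called in Mll1-KO against WT, Gata4, Sox7 and Foxq1. The same fit lost Foxa2 (adjusted p = 0.14) and Hnf4a (adjusted p = 0.23) between the double-KO and Mll2-KO.

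Gata6 was 1613, 1575 and 1610.5 in day 4 WT and 1419, 1421 and 1528 in Mll1-KO. The difference of -0.14 (95% interval -0.24 to -0.03) passed the threshold narrowly at an adjusted p of 0.047. It missed the threshold when any of the 3 WT libraries, Mll1-KO replicate 1 or 2, Mll2-KO replicate 1 or double-KO replicate 2 was left out (adjusted p from 0.05 to 0.14). It also missed it with DESeq2 (adjusted p = 0.078) and edgeR (adjusted p = 0.051). The Mll2-KO libraries held 1601, 1554 and 1772 and the double-KO libraries 1576, 1573 and 1738, which overlapped, and the interval of their difference ran from -0.12 to 0.1. A gene 5.53-fold lower in Mll1-KO stem cells was thus at 91.1% of the WT mean at day 4.

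Gata4 kept a clear deficit at day 4. It was 3242, 3186 and 3453 in WT and 2038, 2024 and 2058 in Mll1-KO, or 61.9% of the WT mean (-0.69, SE 0.04, adjusted p = 2.8e-12). The Mll2-KO libraries at 4670, 4777 and 4896 stood above all others, and the double-KO libraries held 3011, 2779 and 2973 (-0.71, SE 0.04, adjusted p = 1.7e-12). The relative loss at day 4 was close to the same size with and without MLL2, 1.61-fold and 1.64-fold.

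Sox17 was 417, 394 and 450 in day 4 WT and 322, 327 and 303 in Mll1-KO (-0.4, SE 0.07, adjusted p = 4.2e-05). It was 766, 775 and 742 in Mll2-KO and 447, 452 and 481 in the double-KO (-0.73, SE 0.07, adjusted p = 4.4e-09). In both pairs the libraries without MLL1 were the lower ones, with no overlap.

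Sox7 had the largest day 4 loss in Mll1-KO, with 326, 289 and 296 in WT against 131, 121 and 98.2 (-1.38, SE 0.09, adjusted p = 1.4e-11), or 38.5% of the WT mean. Its Mll2-KO libraries held 639, 638 and 659 and its double-KO libraries 461, 468 and 417 (-0.52, SE 0.09, adjusted p = 5.7e-05). All 3 double-KO libraries were above all 3 WT libraries, so the Mll1-KO group alone was below WT.

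Foxa2 was 714, 689 and 829 in day 4 WT and 421, 461 and 464 in Mll1-KO (-0.73, SE 0.07, adjusted p = 5.6e-09). It was 944, 953 and 993 in Mll2-KO and 677, 619 and 673 in the double-KO (-0.55, SE 0.07, adjusted p = 3.3e-07). Foxq1 was 1161, 1371 and 1244 in day 4 WT and 509, 537 and 506 in Mll1-KO (-1.28, SE 0.06, adjusted p = 5.6e-15). Both forkhead genes thus stayed below WT without overlap, Foxa2 at 60.3% and Foxq1 at 41.1% of the WT mean. For Foxq1 the Mll2-KO libraries held 2769.6, 2881 and 2762 and the double-KO libraries 1063, 1012 and 1105, and this difference (-1.4, SE 0.06, adjusted p = 1.7e-15) was the largest of the 7 between these groups.

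Hnf4a was 127, 168 and 143 in day 4 WT and 68.9, 76.1 and 74.3 in Mll1-KO (-0.98, SE 0.12, adjusted p = 5.5e-07), 50.1% of the WT mean. It was 206, 220.1 and 203 in Mll2-KO and 129, 138 and 143 in the double-KO (-0.62, SE 0.12, adjusted p = 2e-04). The Mll1-deleted groups were therefore well above the near absence seen at day 0, while still below their partners.

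**Figure D2:**
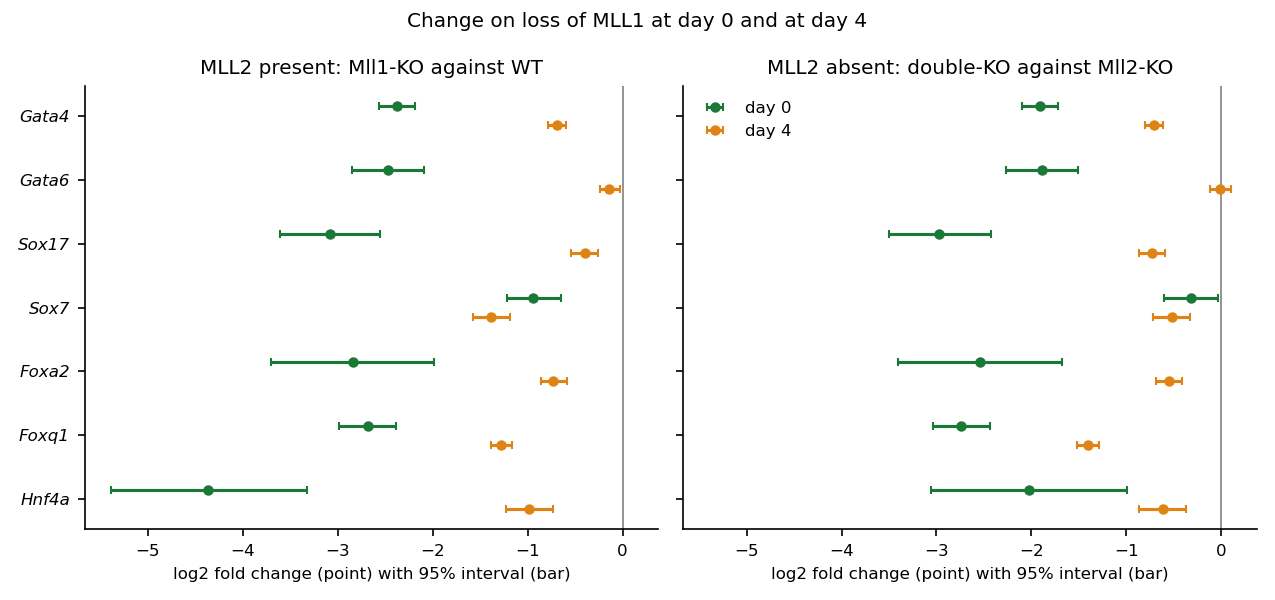
Log2 fold change on loss of MLL1 at day 0 (green) and day 4 (orange) with its 95% interval, with MLL2 present (left) and absent (right). For 6 of the 7 genes the day 4 point lies nearer to 0 than the day 0 point in both panels, and for Sox7 it lies farther from 0.

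The change of the MLL1 effect between days was tested directly as an interaction over all 24 libraries. With MLL2 present, 6 of the 7 genes had a smaller log2 deficit at day 4, a positive interaction, and Sox7 had a larger one. The direction depended on the scale. As a difference of mean normalized counts, the deficit was larger at day 4 for Gata4 (-648 at day 0, -1253 at day 4) and Foxa2 (-40.5, -296). The same held for Foxq1 (-263, -741) and Hnf4a (-60.2, -72.9). It was smaller at day 4 on both scales for Gata6 (-288, -143) and Sox17 (-149, -103). Over all 15114 genes tested, 15% had a positive and 19% a negative interaction. The size was 3.38 for Hnf4a (SE 0.53, adjusted p = 1.7e-05), 2.68 for Sox17, 2.33 for Gata6, 2.11 for Foxa2, 1.68 for Gata4 and 1.4 for Foxq1 on the log2 scale. The Hnf4a value was 2.56 without day 0 Mll1-KO replicate 3 and 2.2 with a pseudocount of 5, still called (adjusted p = 3.3e-07 and 9.9e-07). Sox17 was then ahead of it, at 2.8 and 2.44.

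Sox7 stood apart, at -0.44 (95% interval -0.79 to -0.1, adjusted p = 0.044). That call was lost with no filter, with scaling to column totals, with only the 4 groups compared in the fit, and without any of 10 single libraries. These were day 0 WT replicates 2 and 3, day 0 Mll1-KO replicates 2 and 3, day 4 WT replicates 1 and 3, day 4 Mll1-KO replicate 3 and each day 4 Mll2-KO library (adjusted p from 0.052 to 0.15). Without MLL2 the interaction was positive for 6 of the 7, against 18.8% of all genes. It ran from 1.2 for Gata4 to 2.24 for Sox17, and for Sox7 it was -0.2 (95% interval -0.55 to 0.14, adjusted p = 0.36). The value of 1.41 for Hnf4a (adjusted p = 0.038) missed the threshold without any 1 of 11 libraries of the Mll2-KO and double-KO groups, all of them but day 0 Mll2-KO replicate 3 (adjusted p from 0.051 to 0.098).

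The same values were also read as the change from day 0 to day 4 in each genotype. On the log2 scale, the rise without MLL1 minus the rise in its partner equals the interaction above. A larger rise is therefore not a separate result. In WT all 7 rose, where 43% of all genes rose. The increase was 15.8-fold for Foxa2, 4.57-fold for Gata6, 4.11-fold for Gata4, 4.03-fold for Foxq1, 2.49-fold for Sox17, 2.29-fold for Hnf4a and 1.46-fold for Sox7. In Mll1-KO 6 of 7 rose (43.7% of all genes did), from lower starting levels and by more, with 68.2-fold for Foxa2, 23.8-fold for Hnf4a, 23-fold for Gata6 and 15.9-fold for Sox17. The Hnf4a rise, 4.57 on the log2 scale, was 3.76 without day 0 Mll1-KO replicate 3, the library with no Hnf4a read, and 3.35 with a pseudocount of 5. Sox7 in Mll1-KO was the exception, at 108 ± 14.7 on day 0 and 117 ± 16.8 on day 4, with an interval of the log2 difference from -0.14 to 0.35. Its sign depended on the scaling: it was -0.53 with quantile scaling (adjusted p = 0.00028) and 0.34 with scaling to column totals (adjusted p = 0.013). Those scalings moved the median of all genes in this comparison from 0.06 to -0.11 and to 0.3.

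In Mll2-KO and in the double-KO all 7 factors rose (41.9% and 43.2% of all genes did). Sox7 rose 3.3-fold in Mll2-KO and 2.86-fold in the double-KO. Foxa2 again rose most, 23-fold and 91-fold. The double-KO started from 6.23 ± 0.561 for Foxa2 and ended at 656 ± 32.2.

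The groups without MLL2 were then set against WT, a comparison in which 4-OHT and genotype changed together. At day 0 none of the 7 factors was called in Mll2-KO against WT with limma, where 47.2% of all genes were called in either direction. At an unadjusted p below 0.05 there was 1 (Sox17), and edgeR and DESeq2 each called 2, Sox17 and Hnf4a, both lower. The limma difference was -0.58 for Sox17 (95% interval -1.11 to -0.05, adjusted p = 0.068) and -0.89 for Hnf4a (-1.93 to 0.15, adjusted p = 0.15). With limma, Sox17 was called lower without Mll1-KO replicate 1 (adjusted p = 0.047) or double-KO replicate 3 (adjusted p = 0.048), and Hnf4a without Mll1-KO replicate 3 (adjusted p = 0.028). Foxq1 was at 101% and Gata4 at 109% of the WT mean.

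At day 4, in contrast, 6 of the 7 were higher in Mll2-KO than in WT, against 25.4% of all genes. With all 24 libraries in a single fit the calls of Foxa2 (adjusted p = 0.31) and Hnf4a (adjusted p = 0.29) were lost. Foxq1 was 2.23-fold, Sox7 2.13-fold, Sox17 1.81-fold, Gata4 1.45-fold, Hnf4a 1.44-fold and Foxa2 1.3-fold higher, each with no overlap between the 3 and 3 libraries. The share of all genes without overlap was not counted, so the lack of overlap is only a description. The largest of these, Foxq1, had a log2 difference of 1.16 (SE 0.06, adjusted p = 2.2e-14). Gata6 at 0.04 (95% interval -0.07 to 0.15) was the exception. Whether the MLL2 effect differed between the days was not tested.

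**Figure D3:**
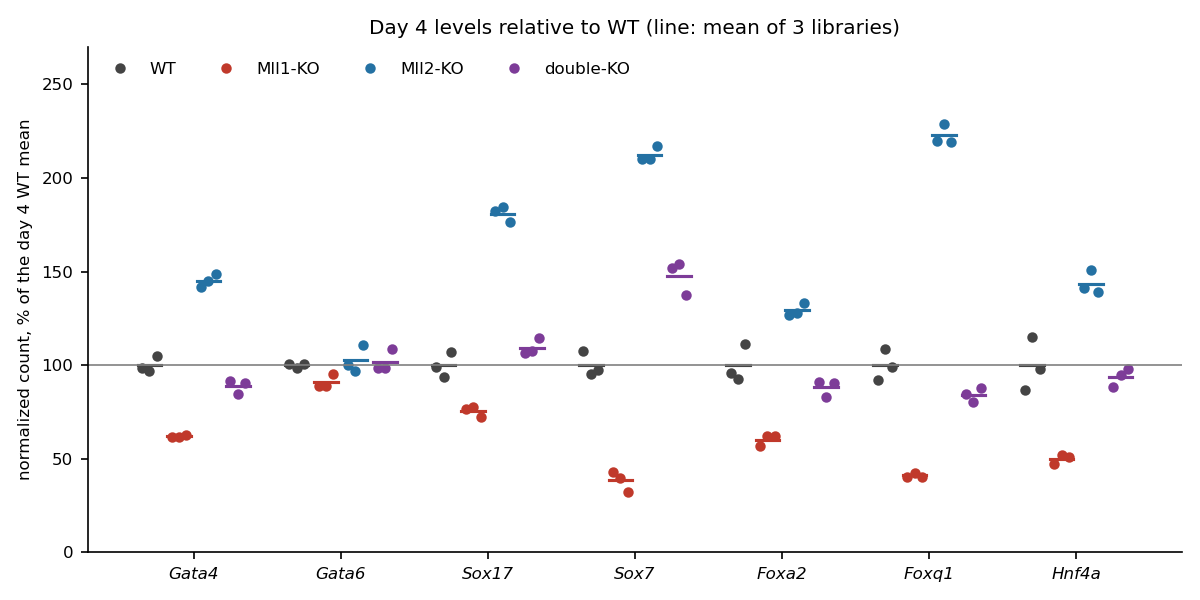
Day 4 normalized counts of the 7 genes as a percent of the day 4 WT mean. Points are libraries and short lines are means of 3. Mll2-KO lies above WT for every gene but Gata6, reaching 223% for Foxq1, and Mll1-KO lies lowest in all 7, down to 38.5% for Sox7.

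In the double-KO all 7 were lower than WT at day 0 (median -2.71, against 27.1% of all genes called lower). The call of Sox7 (-0.41, adjusted p = 0.015) was lost without WT replicate 1 (adjusted p = 0.059) or double-KO replicate 3 (adjusted p = 0.082). At day 4 the double-KO was near WT, with 3 factors lower (23.3% of all genes were) and 1 higher (27.6% were). Gata4 was at 88.7%, Foxa2 at 88.2% and Foxq1 at 84.2% of the WT mean, and Sox7 at 148%. The Foxa2 call (-0.18, adjusted p = 0.031) was lost without WT replicate 3 (-0.1, adjusted p = 0.26) or double-KO replicate 2 (adjusted p = 0.14). Sox17, Hnf4a and Gata6 were not called, although Sox17 was called higher without WT replicate 3 (adjusted p = 0.047).

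Against Mll1-KO, the day 4 double-KO was higher in all 7 (31.1% of all genes were), from 1.12-fold for Gata6 to 3.84-fold for Sox7. The Gata6 call (0.16, adjusted p = 0.012) was lost without Mll1-KO replicate 2 (adjusted p = 0.052) or double-KO replicate 3 (adjusted p = 0.095), with DESeq2 (adjusted p = 0.054) and with all 24 libraries (adjusted p = 0.37). The Gata6 difference shrank to 0.07 with quantile scaling (adjusted p = 0.24) and to 0.05 with column totals (adjusted p = 0.42). At day 0 the double-KO was higher than Mll1-KO for 3 factors (18.9% of all genes were), Gata4 (0.59, adjusted p = 3.2e-05), Sox7 (0.53, adjusted p = 0.004) and Hnf4a (1.44, adjusted p = 0.025). The Hnf4a call rested on Mll1-KO replicate 3, the library with no Hnf4a read, without which the difference was 0.62 (adjusted p = 0.18). It was also lost without double-KO replicate 1 (adjusted p = 0.06) or 2 (adjusted p = 0.056), with edgeR (adjusted p = 0.088), with DESeq2 (adjusted p = 0.062) and with a pseudocount of 5 (0.7, adjusted p = 0.055). Sox17, not called at -0.46, was called lower without Mll1-KO replicate 1 (-0.7, adjusted p = 0.041) or double-KO replicate 3 (-0.69, adjusted p = 0.045).

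Whether the MLL1 effect depended on MLL2 was tested as the difference between the 2 MLL1 effects on the same day. Effects and deficits here are on the log2 scale. At day 0 the deficit was smaller without MLL2 for 3 factors, against 4.42% of all genes, Gata4 (0.46, adjusted p = 0.025), Sox7 (0.62, adjusted p = 0.048) and Hnf4a (2.33, adjusted p = 0.042). These calls were narrow, and between 0 and 3 of them passed when a single day 0 library was left out. None passed without WT replicate 1, Mll2-KO replicate 2, double-KO replicate 1 or double-KO replicate 2, and Hnf4a fell to 1.51 (adjusted p = 0.064) without Mll1-KO replicate 3. At day 4 the deficit of Sox7 was smaller without MLL2 (0.85, SE 0.13, adjusted p = 9.1e-05; 7.59% of all genes were positive) under every alternative run. That of Sox17 was larger (-0.32, adjusted p = 0.027, with 6.05% of all genes negative). The Sox17 call was lost with all 24 libraries in the fit (adjusted p = 0.52), with quantile scaling (adjusted p = 0.076) and with DESeq2 (adjusted p = 0.058). It was also lost without any of WT replicates 1 and 2, Mll1-KO replicate 2, Mll2-KO replicates 1 and 2 and double-KO replicate 2 (adjusted p from 0.051 to 0.077).

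Levels of different genes were compared per kilobase of annotated exon. In day 0 WT Gata4 led with 205 ± 18.2 normalized counts per kb, followed by Foxq1 (64.2 ± 2.8), Sox7 (62.9 ± 4.26), Gata6 (53.9 ± 6.41), Sox17 (35.3 ± 3.51), Foxa2 (19.9 ± 4.79) and Hnf4a (13.1 ± 2.11). Neighbours from Foxq1 to Gata6 overlapped, as did Foxa2 and Hnf4a. Gata4 led and Hnf4a was lowest in all 8 groups. Foxa2 moved most in this order, from the sixth place at day 0 in WT to the second place at day 4 (314 ± 31.6 per kb), above Foxq1 at 260 ± 21.8. In day 0 Mll1-KO Gata4 and Sox7 overlapped at the top, at 39.5 ± 3.07 and 32.9 ± 4.45 per kb. Sox7 fell to the sixth place in day 4 Mll1-KO, at 35.4 ± 5.09 per kb.

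Across the 24 libraries the log2 levels of Gata4, Gata6, Sox17, Foxa2, Foxq1 and Hnf4a correlated with each other at Pearson r of 0.902 to 0.984, as a description of libraries that share genotype and day. Sox7 was the outsider, with r from 0.645 (with Gata6) to 0.8 (with Foxq1). Within the 12 day 4 libraries it was Gata6 that had the low values, from 0.6 with Sox17 to 0.718 with Foxa2, while the pairs of the other 6 genes had 0.893 to 0.993.

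By the same measure over 24 libraries, the genes most like Gata4 were Stard8 (r = 0.993), Pdgfra, a receptor tyrosine kinase of primitive endoderm (0.991), and Col4a2, a basement membrane collagen (0.991). Those most like Gata6 were Pth1r (0.992), Col4a2 (0.989) and Fam114a1 (0.988). Sox17 was matched by Dab2 (0.991), Foxf2 (0.985) and P4ha2 (0.984), and Foxa2 by Col4a1 (0.989), Sparc (0.988) and Col4a2 (0.988). Foxq1 was matched by Stard8 (0.994), Lama1 (0.994) and Pdgfra (0.99), and Hnf4a by P4ha2 (0.957), Srgn (0.956) and Stard8 (0.955). Sox7 had other and looser matches, Cpox (0.953), Sdc4 (0.944) and the homeobox gene Rhox5 (0.94).

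Relatives of these factors were read beside them. The shares over all genes apply to every list below. In Mll1-KO against WT, 5594 of 13984 genes were called at day 0, 2616 of them lower (18.7% of those tested). At day 4 it was 5120 of 14303, 2753 of them lower (19.2% of those tested). Of 8 paralogs listed from the GATA, SOX-F, FOXA and HNF4 families, 6 were tested at day 0 and 0 were called in Mll1-KO against WT with limma, and 0 had an unadjusted p below 0.05, with a median of -0.16. In the double-KO against Mll2-KO at day 0, 2 of the 6 were lower and none higher (median -0.51), Gata2, a GATA factor of blood formation (-1.69, adjusted p = 6.3e-05), and Foxa1 (-0.89, adjusted p = 0.042). At day 0 they were low, with WT sums over the list from 115 to 132, and Hnf4g had no read. Gata5, a GATA factor of heart and endoderm, reached 378 ± 32.6 in day 4 WT and was higher in Mll1-KO at 454 ± 40.6 (0.27, adjusted p = 0.031). Gata3 was also higher in day 4 Mll1-KO (0.29, adjusted p = 0.00052). Foxa1, the nearest relative of Foxa2, was lower there (-0.58, adjusted p = 6e-07).

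Of 11 other endoderm regulators, 10 were tested at day 0, and 3 were lower and 2 higher in Mll1-KO. Otx2, a homeobox gene of anterior visceral endoderm and epiblast, was among the lower ones (-1.48). The nuclear receptor gene Nr5a2 was higher (0.57). At day 4, 7 of 10 were lower and none was higher, with a median of -0.8 (Otx2 -1.37).

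Products of visceral endoderm, the absorptive and secretory layer of the yolk sac, were lower as well. At day 0, 13 of 19 tested were lower and 1 was higher in Mll1-KO, with a median of -1.24 over the list and 0 over all genes. Dab2, an endocytic adaptor, went from 1529 ± 173 to 112 ± 7.55, Cubn, an endocytic receptor, from 2631 ± 58.5 to 198 ± 9.68, and Srgn, a proteoglycan core, from 696 ± 39.8 to 38.7 ± 7.06. Apob was the gene that was higher (1.19, adjusted p = 0.0036). The mature products were barely present, since Afp had no read in any day 0 library and Ttr had none in the day 0 mutants. At day 4, 15 of 21 were lower and none higher (median -1.09), with the largest falls in the plasma protein genes Apoa1 (-3.14, adjusted p = 1.8e-14) and Afp (-2.87, adjusted p = 3.9e-09).

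In parietal endoderm, which lays down a thick basement membrane, 11 of 12 products were lower and none higher at day 0 (median -1.44), and 8 of 12 lower and none higher at day 4 (median -0.46). Col4a1 went from 8386 ± 136 to 1087 ± 114 at day 0 and from 96646 ± 1710 to 50196 ± 1650 at day 4. Pth1r, the parathyroid hormone receptor, was lower by far at day 0 (-3.53) and was not called at day 4 (-0.06, adjusted p = 0.4). In the double-KO against Mll2-KO, 14 of 19 visceral and 11 of 12 parietal products were lower at day 0, where 24.3% of all genes were. At day 4, 18 of 21 and 10 of 12 were lower, against 20.9% of all genes. Thbd, thrombomodulin, was higher there at day 4 (1.32, adjusted p = 8.2e-09).

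**Figure D4:**
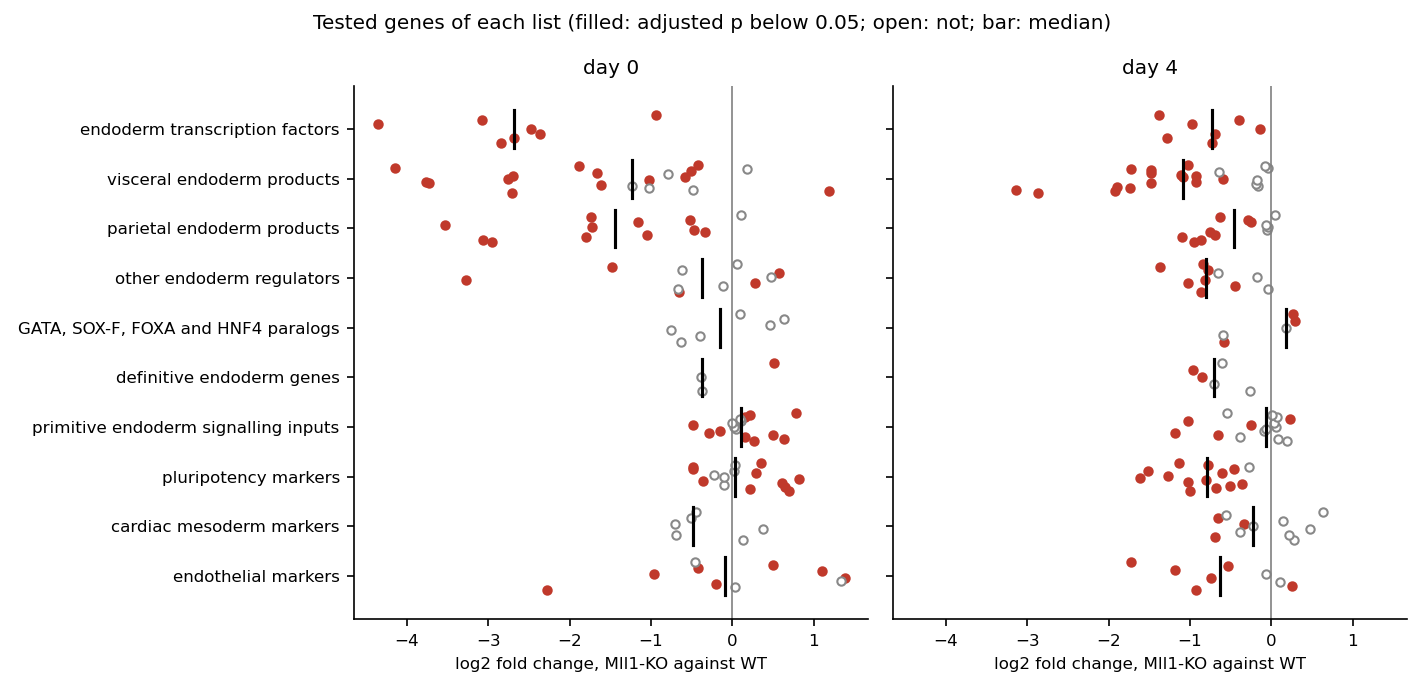
Log2 fold change in Mll1-KO against WT for every tested gene of 10 lists at day 0 (left) and day 4 (right). Filled points passed the threshold, open points did not, and the bar is the list's median. The endoderm factors have a median of -2.68 at day 0 and -0.73 at day 4, and the pluripotency markers 0.03 and -0.79.

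Signalling genes listed as inputs to primitive endoderm, with the FGF pathway among them, did not share this direction in stem cells as a set. The list of 15 also includes Bmp4, Nodal and Pdgfa. In day 0 Mll1-KO 3 were lower and 7 higher, with a median of 0.11. Over all 13984 genes tested, 5594 were called in either direction. Map2k1 (-0.48, adjusted p = 1.8e-07) and the ligand gene Fgf4 (-0.29) were lower. The FGF pathway's feedback targets Spry4 (0.78, adjusted p = 1.7e-08) and Dusp6 (0.64, adjusted p = 2.5e-07) were higher. At day 4, 4 were lower and 1 higher, with Fgf4 at -1.18. Of 7 definitive endoderm genes, the germ layer of the embryo proper, 3 were tested at day 0 with 1 higher, and 5 at day 4 with 2 lower, Shh (-0.96) and Sfrp5 (-0.85).

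Markers of other cells were read beside these results. Of all genes, 18.7% were called lower in Mll1-KO at day 0 and 19.2% at day 4. Among 15 pluripotency markers 3 were lower and 7 higher in day 0 Mll1-KO, and their summed level lay between 128719.6 and 130599.8 in Mll1-KO and between 135128 and 136975 in WT. At day 4, 13 of 14 tested were lower (median -0.79), and the sum lay between 5588 and 6289.8 in Mll1-KO against 9228 to 10383 in WT, with no marker at 0. Its part in the day 4 results was not tested. SOX7, SOX17 and GATA4 are also known from endothelium and heart. Among 12 cardiac mesoderm markers 6 were tested at day 0 and 0 were called in Mll1-KO with limma, nor at an unadjusted p below 0.05, with sums of 186 to 216 in WT and 192 to 231 in Mll1-KO. Among 11 endothelial markers 4 of the 10 tested were lower and 3 higher at day 0, and 5 of the 8 tested were lower and 1 higher at day 4. The endothelial sum at day 4 lay between 3465 and 3556 in WT and between 2364 and 2503 in Mll1-KO. The cadherin gene Cdh5, 1 of the list, was at 10.2 ± 5.52 in that WT group, a small part of the sum. At day 0 it had the largest fall of the list (-2.28, adjusted p = 0.00082), and Etv2 had the largest called rise (1.38, adjusted p = 0.0082). The largest called falls of the list at day 4 were Tie1 (-1.72) and Pecam1 (-1.18), and Eng was the higher one (0.25). At day 4, 3 of the 11 cardiac markers tested were lower. Among neural markers, 1 was lower and 3 higher of 8 at day 0, and 3 lower and 5 higher of 9 at day 4. Among trophectoderm markers, 2 were lower and 1 higher of 5 at day 0, and 4 lower and none higher of 5 at day 4. Among fibroblast markers, 2 of 3 were lower at day 0, and 1 was lower and 2 higher of 8 at day 4. The part of these cells in the results on the endoderm factors was not tested.

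Genes next to the factors were counted as well. Within 250 kb of their starts lay 26 other genes of the table, 17 of which were tested at day 0, and 3 were lower and 2 higher in Mll1-KO against WT, with a median of -0.09. That count is near the share over all genes, of which 18.7% were called lower. Among the lower ones was Foxf2, a forkhead gene 69.7 kb from Foxq1, at -3.02 (adjusted p = 0.00022) in stem cells and -0.59 (adjusted p = 0.0063) at day 4. Ctsb, 149 kb from Gata4, was lower by less (-0.35) and Pinx1, 83.3 kb from Sox7, was higher (0.47). Gata4 and Sox7 themselves lie 672 kb apart on chromosome 14. Antisense gene Hnf4aos overlaps Hnf4a and never exceeded 4 reads in a library. No label or header says if strand was used in counting, so reads of the 2 could not be told apart.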

How the data were processed

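PolyA RNA was sequenced from 24 mouse embryonic stem cell libraries. Per the submitters' processing notes the tools included STAR 2.7.10a and the mm10 build, with DESeq2 1.34.0 and RSEM 1.3.1, in no stated order. The deposited values are a signal, normalized counts that, from the values themselves, equal whole read counts divided by 1 size factor per library. All values came out whole (100% within 1e-06) once the factors were recovered, with 10.7 M to 22.8 M reads per library.

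The main test was limma 3.58.1 (R 4.3.3) with a mean-variance trend on log2 of the deposited normalized count plus 1. Genes needed at least 10 in 3 or more of the libraries fitted. Comparisons within a day used that day's 12 libraries and those across days all 24, with Benjamini-Hochberg adjustment over all genes tested and a threshold of 0.05. The count tests, edgeR 4.0.16 and DESeq2 1.42.0 on the recovered reads, were alternatives, as were the pseudocount, the filter, the scaling, the libraries fitted, a replicate block and leaving out each library. Positions came from GENCODE M21 by symbol, with a match for 97.1% of the 19953 genes, and promoter windows from RefSeq GRCm38.p6. The statistical scripts were tested on simulated data.

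Genes named in the text are the 7 factors, Kmt2a and Kmt2b, the genes of each list with up to 2 largest called rises and falls on loss of MLL1 at each day, the 3 genes most alike to each factor, and genes within 250 kb. Other list genes named, such as Pou5f1, Sox2, Col4a1, Gata5, Ttr and Hnf4g, were chosen after their values were seen. The factors and lists were chosen with earlier results of these data known. Replicate numbers did not pair the libraries.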

Additional observations from a re-analysis of the deposited data

Results flagged for a closer look

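Several results differed between days or between backgrounds by a test of the difference itself, with limma and Benjamini-Hochberg adjustment over all genes. With MLL2 present, the log2 fold change on loss of MLL1 moved from day 0 to day 4 by 3.38 for Hnf4a, 2.68 for Sox17, 2.33 for Gata6, 2.11 for Foxa2, 1.68 for Gata4 and 1.4 for Foxq1, each toward 0. Sox7 moved the other way, by -0.44. Without MLL2 the move was 2.24 for Sox17, 1.98 for Foxa2, 1.88 for Gata6, 1.41 for Hnf4a, 1.34 for Foxq1 and 1.2 for Gata4. Within day 0 the effect of MLL1 loss differed between backgrounds with and without MLL2 by 2.33 for Hnf4a, 0.62 for Sox7 and 0.46 for Gata4. Within day 4 it differed by 0.85 for Sox7 and by -0.32 for Sox17. The background without MLL2 had also received 4-OHT, so MLL2 loss and the drug cannot be told apart in these differences.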

How the results depend on the processing

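Of the single-gene values under alternatives, 3176 kept their direction and call, 104 lost the call, 24 gained it and 34 changed sign. The number of factors called in Mll2-KO against WT at day 0 was 0, and was 2 with a pseudocount of 5, 1 with all 24 libraries, 3 with only the groups compared, 2 with edgeR and 2 with DESeq2, and 0 to 1 when single libraries were left out. For the dependence on MLL2 at day 0 it was 3, 1 with no filter, and 0 to 3 without single libraries. With all 24 libraries the count went from 7 to 3 for Mll1-KO against WT and from 7 to 4 for the double-KO against Mll1-KO at day 4. For the dependence on MLL2 at day 4 it went from 2 to 1 with all 24 libraries, 1 with DESeq2 and 1 to 2 without single libraries, and the count over all genes from 1951 to 1000 with all 24 libraries, and 1269 to 2092 without single libraries.

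Signs turned for values that were near 0 and not called in the main fit. With quantile scaling Foxa2 was 0.02 and Foxq1 -0.02 in Mll2-KO against WT at day 0, Foxq1 was 0.12 in the double-KO against Mll1-KO and 0.14 for the dependence on MLL2 at day 0. Foxa2 in the double-KO against Mll1-KO at day 0 was -0.07 with edgeR and -0.07 with DESeq2. At day 4 Gata6 was 0.02 with column totals and 0.01 with edgeR in the double-KO against Mll2-KO, -0.03 with quantile scaling and -0.05 with column totals in Mll2-KO against WT, and -0.04 with either scaling in the double-KO against WT. Hnf4a in the last comparison was 0.04 with quantile scaling. Sox7 from day 0 to day 4 in Mll1-KO was 0.1 in the main fit and -0.53 with quantile scaling, where it was called lower (adjusted p = 0.00028). With scaling to column totals it was called higher (0.34, adjusted p = 0.013). The cause was not tested.

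Without single libraries at day 0, Foxq1 ran from -0.02 to 0.03 in Mll2-KO against WT. In the double-KO against Mll1-KO Foxa2 ran from -0.45 to 0.52, Foxq1 from -0.2 to 0.03 and Gata6 from -0.01 to 0.41. For the dependence on MLL2 Sox17 ran from -0.13 to 0.25, Foxa2 from -0.28 to 0.69 and Foxq1 from -0.22 to 0.01. At day 4 Gata6 ran from -0.06 to 0.04 in the double-KO against Mll2-KO, -0.02 to 0.07 in Mll2-KO against WT and -0.02 to 0.05 in the double-KO against WT, Hnf4a from -0.18 to 0.02 there, and Gata4 from -0.06 to 0.01 for the dependence on MLL2.

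Same-numbered libraries did not deviate together (median residual r 0.00304, from -0.0446 to 0.0768). With the replicate number as a block the number of factors called was the same in all 18 comparisons (7 in Mll1-KO against WT at day 0), and over all genes that comparison gave 5840 calls in place of 5594. Depth limited Hnf4a and Foxa2 at day 0, with 9 and 21 reads over the Mll1-KO libraries.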
